A study of Homo sapiens with 18 samples.

Results

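DLX1, DLX2, DLX5 and DLX6 are homeobox genes of the distal-less family, DLX6-AS1 is a long noncoding RNA gene of the DLX5 and DLX6 locus, and NKX2-1 is a homeobox gene of the ventral forebrain. These 6 genes were followed through the differentiation of human embryonic stem (ES) cells of the H9 line to neuroepithelium, the sheet of cells from which the central nervous system forms. They are 6 of the 19775 genes measured, and 11 probe sets named one of them and no other gene. For each gene, _x_at probe sets were dropped if any other was there, and of the rest the one with the highest mean log2(signal + 16) over 18 arrays was kept. The kept probe sets were 242138_at (DLX1), 207147_at (DLX2), 213707_s_at (DLX5), 239309_at (DLX6), 230882_at (DLX6-AS1) and 211024_s_at (NKX2-1).

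The 18 arrays held 6 groups of 3 RNA pools, all from H9 cells, with no genetic change given in the labels. They were undifferentiated ES cells, embryoid bodies (aggregates grown in suspension) at day 6, neuroepithelium at days 10 and 17 without added growth factor, and neuroepithelium at days 10 and 17 with basic fibroblast growth factor (bFGF) from day 6. At day 17 the cells are labelled as rosettes, the radial arrays that neuroepithelial cells form in culture. The labels give 20 ug/ml bFGF for day 10 and 20 ng/ml for day 17, and which unit applied was not resolved. All pools came from 1 cell line, and nothing in the labels says that neuroepithelial pools came from separate cultures, so the tests speak only for the spread between these pools, which may be technical.

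In the embryonic forebrain, DLX1, DLX2, DLX5 and DLX6 are switched on one after another in the ganglionic eminences, the ventral swellings that give rise to GABAergic (inhibitory) neurons. DLX1 and DLX2 act in progenitors, where they hold back other fates and activate DLX5 and DLX6, and the genes lie in pairs that share enhancers. NKX2-1 marks the medial ganglionic eminence, the preoptic area and the hypothalamus, where it acts below Sonic hedgehog, and it is also a regulator of lung and thyroid. Outside the brain, DLX5 and DLX6 are known from the border of the neural plate, the placodes, the branchial arches, bone and limb.

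The gene table places DLX1 and DLX2 on chromosome 2, DLX5, DLX6 and DLX6-AS1 on chromosome 7 with DLX6 inside the span of DLX6-AS1, and NKX2-1 on chromosome 14, where its span overlaps those of SFTA3 and NKX2-1-AS1. The arrays' probe positions and strands were not used here, so that signals of DLX6 and DLX6-AS1 cannot be assigned to a strand. RefSeq promoter windows (build GRCh38.p14) were matched for 5 of the 6 genes. The windows of the 4 genes that rose between untreated day 10 and day 17 are shown because these genes moved together; each is the 250 bases before the annotated start, 5′ to 3′ on the gene's strand. Capitals mark matches, on either strand, to TAATTA (the core bound by many homeodomain proteins, the same on both strands), to the CCAAT box, to the TATA box letters TATAAA or to the GC box letters GGGCGG. The window of DLX1 is chr2:172085257-172085506 (plus strand), that of DLX2 chr2:172102901-172103150 (minus), that of DLX6-AS1 chr7:97014066-97014315 (minus) and that of the first NKX2-1 start chr14:36520233-36520482 (minus).
DLX1: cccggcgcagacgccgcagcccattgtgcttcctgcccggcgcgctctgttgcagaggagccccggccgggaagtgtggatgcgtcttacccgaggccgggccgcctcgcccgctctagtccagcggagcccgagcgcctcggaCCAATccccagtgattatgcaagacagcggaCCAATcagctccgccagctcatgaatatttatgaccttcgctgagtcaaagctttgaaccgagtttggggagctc
DLX2: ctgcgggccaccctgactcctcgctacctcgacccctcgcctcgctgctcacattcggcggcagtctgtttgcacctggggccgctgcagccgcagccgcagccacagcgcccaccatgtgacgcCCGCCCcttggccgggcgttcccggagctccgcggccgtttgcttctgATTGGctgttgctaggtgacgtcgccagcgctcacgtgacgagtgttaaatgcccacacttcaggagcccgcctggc
DLX6-AS1: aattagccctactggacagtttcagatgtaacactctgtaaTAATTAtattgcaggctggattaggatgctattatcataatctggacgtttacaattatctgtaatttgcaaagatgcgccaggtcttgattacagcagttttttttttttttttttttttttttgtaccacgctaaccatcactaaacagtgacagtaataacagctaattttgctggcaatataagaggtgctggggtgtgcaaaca
NKX2-1: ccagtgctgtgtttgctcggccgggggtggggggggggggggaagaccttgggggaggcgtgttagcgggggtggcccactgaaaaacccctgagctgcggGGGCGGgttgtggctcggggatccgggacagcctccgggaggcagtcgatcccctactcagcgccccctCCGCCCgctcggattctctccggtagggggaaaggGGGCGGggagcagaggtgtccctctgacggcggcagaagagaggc

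No motif was in all 4 windows. DLX1 held CCAAT at 2 places, DLX2 held CCAAT and GGGCGG once each, both on the opposite strand, DLX6-AS1 held TAATTA once, and NKX2-1 held GGGCGG at 3 places. Over 35116 windows of the same length, 4.35% held TAATTA, 32.0% CCAAT, 10.7% TATAAA and 42.6% GGGCGG. The DLX6-AS1 window had 35.2% G and C, against 63.6% for DLX1, 68.0% for DLX2, 70.8% for NKX2-1 and a median of 58.0% over all windows. DLX6, which overlaps DLX6-AS1, had a window of 70.0% G and C with CCAAT at 2 places. NKX2-1 has a second listed start, whose window is also that of an SFTA3 start and holds TAATTA once. These matches describe letters only, and binding was not measured.

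The deposited values are linear array signals scaled to 1 level. Groups were compared with limma on log2(signal + 16), with p-values adjusted over all 19775 genes and a gene called at an adjusted p under 0.05. Log2 changes are given as estimate ± standard error on that scale, which understates the changes of dim genes, and signals as mean ± SD (n = 3). A signal of one probe set cannot be set against that of another. In each of the 4 groups of neuroepithelium the pool 2 array had raised low signals, with medians of 48.7 to 50.8 against 25.2 to 32.7 on the other 14 arrays. Of the markers of the labelled cells, NANOG, a core pluripotency factor, was at 3203 ± 382 in ES cells and 20.9 ± 10.2 at untreated day 10, and SOX1, an early neuroectoderm factor, was at 11.8 ± 9.49 and 612 ± 184. LIN28A, an RNA-binding protein of stem cells, stayed at 8210 ± 949 at untreated day 10 against 9124 ± 519 in ES cells, and was at 10898 ± 817 at day 6. These are bulk RNA pools, in which fewer cells of a type and less RNA per cell cannot be told apart.

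**Figure D1:**
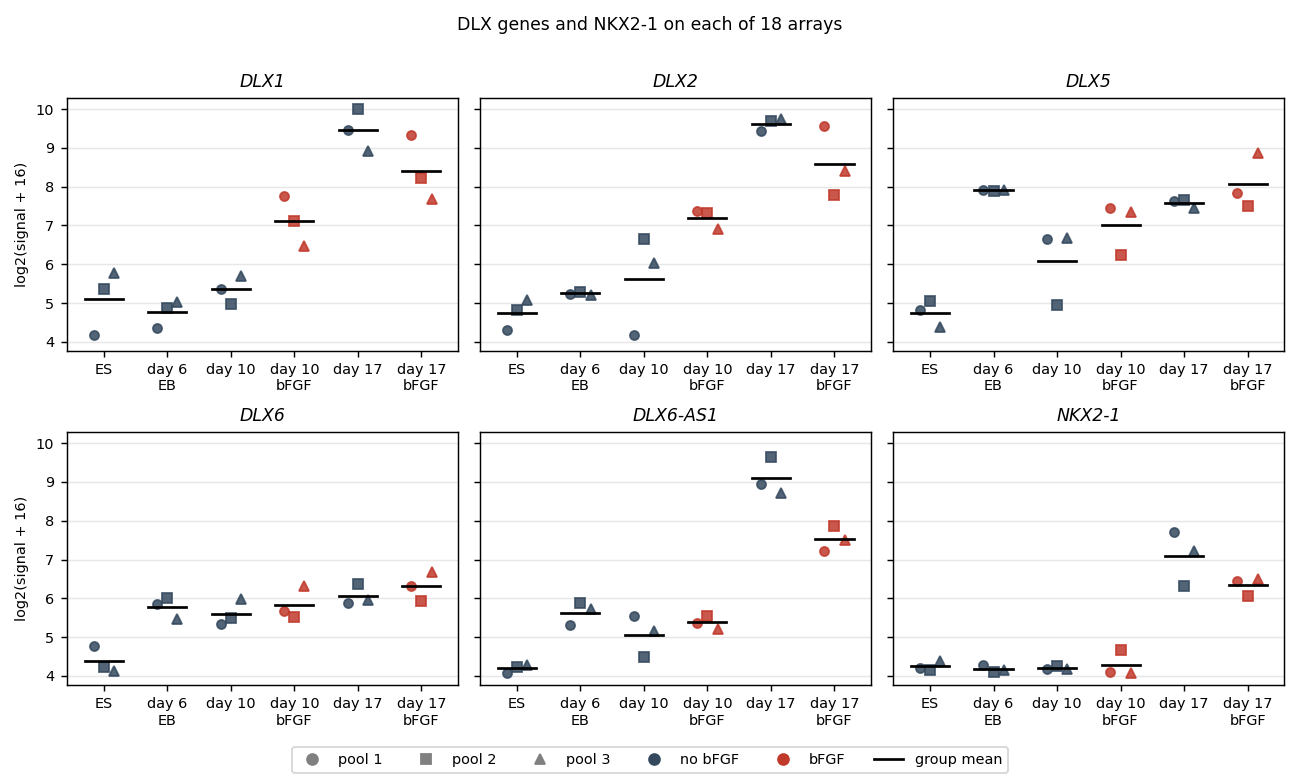
Each panel plots log2(signal + 16) of 1 gene on the 18 arrays by group, with a symbol for each pool, blue without and red with bFGF, and a bar at the group mean. DLX5, DLX6 and DLX6-AS1 leave the ES level by day 6, while DLX1, DLX2, DLX6-AS1 and NKX2-1 stand highest in untreated day 17 cells.

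The first comparison asked which of the genes differed between ES cells and day 6 embryoid bodies. The 3 genes of the chromosome 7 locus, DLX5, DLX6 and DLX6-AS1, rose, and DLX1, DLX2 and NKX2-1 did not pass the test. Over all genes 2.19% were called higher and 1.66% lower, beside 3 of these 6 genes higher. DLX5 signals were 12.2, 17.3 and 4.77 in ES pools 1, 2 and 3, and 224, 219 and 226 in the embryoid body pools. The groups were far apart and the 3 embryoid body pools nearly equal; by their labels pools 1 and 2 of the embryoid bodies came from the same passages (27, 28 and 31). DLX5 thus reached 223 ± 3.57 against 11.4 ± 6.31 (log2 change 3.15 ± 0.44, adjusted p = 0.000334 by limma). Leaving out any 1 array of the comparison gave 2.97 to 3.31, with adjusted p of at most 0.00321.

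DLX6, its partner in the gene pair, read 11.5, 2.89 and 1.33 in ES cells and 41.5, 48.6 and 28.5 at day 6. All day 6 pools lay above all ES pools, and the mean rose to 39.5 ± 10.2 from 5.24 ± 5.46 (1.40 ± 0.28, adjusted p = 0.00695). DLX6-AS1, whose transcript regulates DLX activity in mouse forebrain, read 0.858, 2.81 and 3.49 in ES cells and 23.9, 42.5 and 36.5 at day 6. Again no pool overlapped, and the log2 change was 1.44 ± 0.28 (adjusted p = 0.00674), which lost its call at a pseudocount of 64 (0.56, adjusted p = 0.128). The second DLX6 probe set, 221289_at, gave 0.74 (adjusted p = 0.315). It stayed dim, at 20.7 ± 8.69 at day 6 and below the array's median on all 3 arrays. The third, 242940_x_at, went from 3.98 ± 2.88 to 68.5 ± 7.73.

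Of the other pair, DLX1 read 2.23, 25.2 and 39.1 in ES cells and 4.67, 13.4 and 16.6 at day 6, which overlap (-0.35 ± 0.46, adjusted p = 0.899). DLX2 read 3.68, 12.2 and 17.8 and then 21.7, 23.2 and 21.2, with every day 6 pool above every ES pool by a small margin. Its change of 0.52 ± 0.50 did not pass (adjusted p = 0.824, 95% interval -0.54 to 1.57). NKX2-1 lay between 1.18 and 4.92 in all 6 pools and below each array's median (-0.07 ± 0.28, adjusted p = 0.986). The remaining family members DLX3 and DLX4 did not pass in any of the 7 comparisons; at day 6 DLX3 was at 25.2 ± 20.5 and DLX4 at 42.7 ± 12.4.

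Genes of other tissues that use DLX5 also moved at day 6. Of 8 measured neural crest and branchial arch markers 3 rose and 1 fell. Their summed signal, carried at day 6 by TFAP2A and TFAP2B, was 1094 to 1122 against 269.5 to 331.4 in ES cells. TFAP2A, a transcription factor of surface ectoderm and neural crest, reached 670 ± 71.1 against 35.0 ± 21.0, and its relative TFAP2B 237 ± 62.4 against 8.80 ± 1.96. SOX10 was the other member that rose. FOXD3, which is also active in ES cells, was the member called lower (-1.15 ± 0.27). TWIST1, PRRX1, HAND2 and BARX1 had lower means than in ES cells without a call. The list median was -0.15, so that the higher sum does not stand for a rise of the list as a whole. Of 7 trophoblast markers 3 rose (HAND1, GATA3 and VGLL1), with a summed signal of 737.8 to 1083 against 149.1 to 262.7. Of 8 surface ectoderm and placode markers 2 rose, GRHL3 to 170 ± 17.2 and EYA1 to 58.7 ± 1.62. Their summed signal, carried by KRT18 and EPCAM, was 6739 to 7806 against 6955 to 10214, and the epidermal keratins KRT5, KRT14 and KRT15 had means of 3.16 to 5.57 at day 6. None of 4 bone markers was called (summed signal 279.4 to 367.0 against 179.5 to 319.2). The part of such cells in the DLX5, DLX6 and DLX6-AS1 signals was not tested.

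Ventral forebrain genes moved in part. Of 16 measured ventral patterning genes 4 rose at day 6: PTCH1, the hedgehog receptor (1.25 ± 0.21), SMO, its signalling partner (0.90 ± 0.21), GLI3, a hedgehog effector (1.64 ± 0.21), and ISL1, a LIM homeobox gene of motor and striatal neurons (2.56 ± 0.38). Of 15 measured genes of the GABAergic programme 6 rose, among them SP8, a zinc finger factor of the forebrain (2.99 ± 0.23), MEIS2, a homeobox gene of the lateral ganglionic eminence (2.94 ± 0.27), and GAD1, which makes GABA (1.88 ± 0.44). The median log2 changes of the 2 lists were 0.10 and 0.75, against -0.00 over all genes. SHH, the ligand, was at 24.1 ± 18.7 against 35.9 ± 27.5 in ES cells.

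Between day 6 and untreated day 10, DLX5 fell and none of the other 5 genes passed the test. Over all genes 3.73% were called higher and 2.64% lower. The DLX5 signals at day 10 were 84.7, 14.7 and 86.6, all under the day 6 pools, with pool 2, an array of raised low signals, the lowest. The mean was 62.0 ± 41.0 (-1.81 ± 0.44, adjusted p = 0.0182). Without the 4 arrays of raised low signals the change was -1.24 (adjusted p = 0.0208). The call did not hold in every fit: adjusted p was 0.0599, 0.0565 and 0.0619 without day 6 pools 1, 2 and 3, 0.085 without day 10 pool 2 (change -1.24), 0.0594 at a pseudocount of 1 and 0.0783 with the compared groups alone.

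DLX6 stayed at 24.7, 28.9 and 47.4 (-0.17 ± 0.28, 95% interval -0.76 to 0.42), and DLX6-AS1 at 30.3, 6.60 and 19.9 (-0.57 ± 0.28, interval -1.17 to 0.04). Both still lay above all ES pools at this time. DLX1 read 25.2, 15.7 and 35.9 (0.59 ± 0.46), and DLX2 was scattered at 2.09, 84.9 and 49.6 (0.37 ± 0.50). NKX2-1 remained at 2.12, 3.13 and 2.22, below each array's median (0.03 ± 0.28).

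In the same interval 1 of 8 neural crest and 3 of 8 surface ectoderm markers were called lower and none of either higher. TFAP2A fell to 173 ± 47.1 (-1.88 ± 0.40), as did GRHL3 (-2.18 ± 0.28), GRHL2 (-1.26 ± 0.32) and EPCAM, an epithelial adhesion protein (-2.81 ± 0.19). The summed signals at day 10 were 450.2 to 744.3 for neural crest, 2596 to 3960 for surface ectoderm and 480.9 to 924.3 for trophoblast, of which 0 of 7 members was called. The neural crest list did not fall as a whole. SOX10 stayed at 101 ± 18.3 against 99.9 ± 19.1 at day 6. TWIST1 (42.3 ± 17.8 against 25.6 ± 5.64), HAND2 and BARX1 had higher means, and TFAP2B (180 ± 106), FOXD3 and PRRX1 had lower means without a call. Of 4 bone markers 1 was called higher, RUNX2, a regulator of osteoblasts (33.7 ± 2.94 against 7.39 ± 5.94, 1.12 ± 0.27). Whether loss of such cells had a part in the DLX5 decrease was not tested. Of the ventral patterning genes PTCH1 (-1.18 ± 0.21) and HHIP, a hedgehog inhibitor that hedgehog signalling switches on (-2.63 ± 0.31), fell and GLI3 rose (0.85 ± 0.21). Of the GABAergic programme SP8 (1.71 ± 0.23), MEIS2 (1.72 ± 0.27) and SST, the neuropeptide somatostatin (2.78 ± 0.46), rose. LHX8, a LIM homeobox gene of ventral cholinergic neurons, fell (-1.20 ± 0.25). The list medians were 0.03 and 0.19, against 0.09 over all genes.

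The next comparison asked what changed from day 10 to day 17 without bFGF. DLX1, DLX2, DLX6-AS1 and NKX2-1 rose, by 2.88 to 4.11 on the log2 scale, and DLX5 and DLX6 did not pass the test. Over all genes 1.45% were called higher and 0.536% lower, against 4 of these 6 genes higher. DLX1 signals were 685, 1001 and 471 in pools 1, 2 and 3 at day 17. All were above the highest day 10 pool of 35.9, and the mean reached 719 ± 267 against 25.6 ± 10.1 (4.11 ± 0.46, adjusted p = 0.000173). DLX2 read 678, 812 and 839, against at most 84.9 at day 10 (776 ± 86.2 against 45.5 ± 41.5, 4.0 ± 0.50, adjusted p = 0.000303). With the compared groups alone, DLX2 missed the threshold (adjusted p = 0.0605).

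DLX6-AS1 read 478, 788 and 406 against 30.3, 6.60 and 19.9, which gave the smallest adjusted p of the 6 genes (557 ± 203, 4.04 ± 0.28, adjusted p = 1.13e-06). NKX2-1 read 194, 64.3 and 133, with pool 2 lowest, against 2.12 to 3.13 at day 10 (130 ± 64.7, 2.88 ± 0.28, adjusted p = 2.59e-05). It was below the median of every array before day 17 and above it on all 6 arrays of day 17, with and without bFGF. Without the 4 arrays of raised low signals the changes were 3.66 for DLX1, 4.48 for DLX2, 3.49 for DLX6-AS1 and 3.28 for NKX2-1, with adjusted p of at most 0.00827. Leaving out any 1 array of the 2 groups kept the calls of these 4 genes (adjusted p of at most 0.00256).

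Of the coding genes of the chromosome 7 locus, neither passed at this step. DLX5 read 183, 185 and 160 at day 17, above all day 10 pools (176 ± 14.2, 1.49 ± 0.44), but did not pass (adjusted p = 0.119). It passed with pool number as a random block (adjusted p = 0.0413) and with the set of the 4 arrays as a term (0.0127). DLX6 read 42.5, 66.9 and 46.7, which overlaps day 10 (0.46 ± 0.28, adjusted p = 0.685, 95% interval -0.13 to 1.05). Whether their changes differ from that of DLX6-AS1 was not tested.

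The other probe sets of DLX1, DLX2 and NKX2-1 had the same direction at this step, with smaller changes. The second DLX1 probe set, 1560100_at, went from 11.5 ± 15.1 to 76.7 ± 39.8 (1.80, adjusted p = 0.046 over all probe sets). The second DLX2 probe set, 215685_s_at, went from 46.1 ± 25.9 to 68.1 ± 7.42 (0.53, adjusted p = 0.851), and 210673_x_at of NKX2-1 from 7.02 ± 5.80 to 22.7 ± 17.3 (0.69, adjusted p = 0.679). The 2 last did not pass, so that the increases of DLX2 and NKX2-1 rest on 1 probe set each. DLX5 and DLX6-AS1 have only 1 probe set each, so that their changes could not be compared with another. Over the 18 arrays the kept and the other probe set correlated at 0.847 for DLX1, 0.702 for DLX2, 0.602 for NKX2-1, and 0.622 and 0.917 for the pair of others of DLX6. These correlations across arrays share group differences and are a description.

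**Figure D2:**
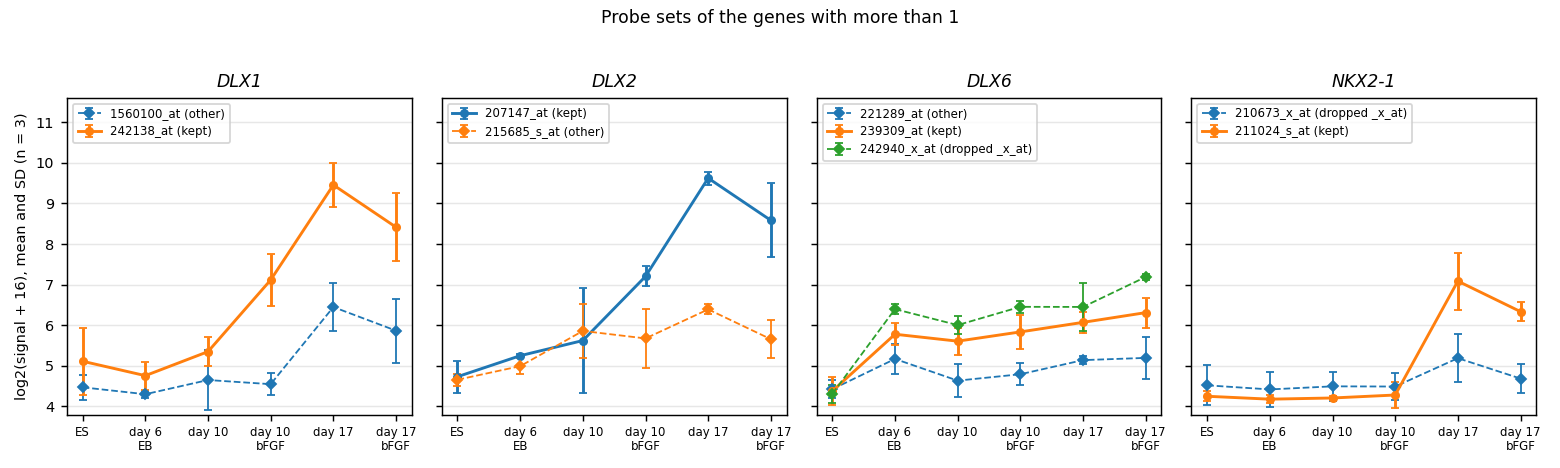
The panels plot the mean log2(signal + 16) with its SD (n = 3) by group for each probe set of the 4 genes that have more than 1, solid for the kept one and dashed for the others. From untreated day 10 to day 17 the change was 4.11 in the kept and 1.80 in the other probe set of DLX1, 4.0 and 0.53 for DLX2, and 2.88 and 0.69 for NKX2-1.

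SFTA3, a gene known from lung whose span overlaps NKX2-1, had the pattern most like that of NKX2-1 (Pearson r = 0.959 over 18 arrays). Its signals at day 17 were 158, 47.9 and 154, against 5.26, 4.80 and 8.82 at day 10. SFTA3 rose by 2.48 ± 0.32 (adjusted p = 0.000365), and as for NKX2-1, pool 2 was lowest at day 17. SFTA3 was chosen for its likeness to NKX2-1 on these same arrays. Its sharing of the rise and of the pool order is therefore no separate result. Overlapping genes cannot be separated without probe positions. NKX2-1-AS1, the antisense gene of the locus, named here for its position, lay between 1.32 and 22.8 on all 18 arrays and was not called in any of the 7 comparisons.

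The lung and thyroid list, the other tissues that use NKX2-1, had 0 of 7 measured members called at day 17, with a summed signal of 245.3 to 449.0 against 387.2 to 690.2 at day 10. The surfactant genes SFTPB and SFTPC were at 22.5 ± 12.6 and 18.3 ± 12.4, and TG, thyroglobulin, at 30.2 ± 28. Of 8 hypothalamic genes 0 were called, with a median change of -0.54. RAX, an eye field and hypothalamus homeobox gene, was at 33.5 ± 26.9 against 123 ± 18.7, and SIX3 at 1144 ± 80.6 against 2660 ± 249. The part of any cell type in the NKX2-1 signal was not tested.

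Of the GABAergic programme 3 of 15 genes rose from day 10 to day 17. They were LHX8 (83.5 ± 10.4 against 5.72 ± 5.97, 2.22 ± 0.25), LHX6, a target of NKX2-1 in interneurons (84.0 ± 20.3 against 20.3 ± 23.5, 1.63 ± 0.39), and SLC32A1, the vesicular GABA transporter (1.73 ± 0.40). LHX6 was already at 72.9 ± 3.68 in ES cells, near its day 17 level, and at 52.8 ± 20.6 at day 10 with bFGF. GAD1 was at 27.4 ± 26.3 and GAD2 at 87.6 ± 51.3, neither called, and the list median was 0.07 against -0.01 over all genes. Of 16 ventral patterning genes 1 rose, OLIG1, a factor of ventral progenitors and oligodendrocytes (83.4 ± 15.9 against 15.2 ± 13.8, 1.77 ± 0.33). OLIG2 was at 73.1 ± 8.34 against 18.6 ± 14.8, and GSX2, a homeobox gene of the lateral ganglionic eminence upstream of DLX genes, at 59.7 ± 22.6 against 28.2 ± 30.4. SHH stayed at 22.7 ± 11.7.

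Dorsal forebrain genes rose in part in the same interval: 4 of 10 were called higher, with a list median of 0.13 against -0.01 over all genes. EMX2, a homeobox gene of the cortex, reached 1290 ± 311 against 150 ± 102 (3.11 ± 0.40), and NR2E1, a nuclear receptor of forebrain progenitors, 616 ± 44.8 against 19.5 ± 15.9 (4.25 ± 0.30). TBR1 (1.33 ± 0.29) and EOMES (1.63 ± 0.35), factors of cortical glutamatergic neurons, also rose. The pools thus held RNA of ventral and dorsal forebrain genes at day 17, and whether in the same cells was not measured.

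**Figure D3:**
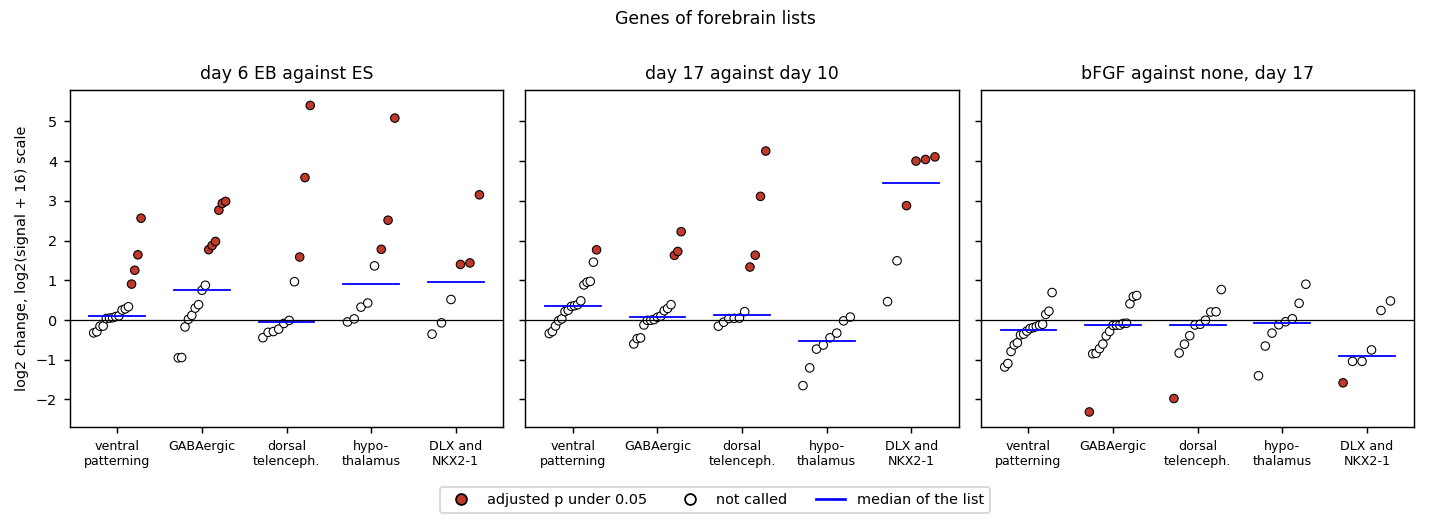
Each point is the log2 change of 1 gene on the log2(signal + 16) scale in 3 comparisons, by gene list, filled red where the adjusted p was under 0.05, with a blue bar at the list median. At day 17, 4 of the 6 DLX and NKX2-1 genes are red and high, while 3 of 15 GABAergic and 4 of 10 dorsal genes are red.

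At day 10 bFGF changed none of the 6 genes past the test. Over all genes 0.0809% were called higher and 0.00506% lower, and at an unadjusted p under 0.05 limma gave 613 genes (3.1%) and 2 of the 6. Those were DLX1 and DLX2, with every bFGF pool above every untreated pool. How many of all genes had pools apart in this way was not counted. DLX1 read 202, 122 and 72.8 with bFGF against 25.2, 15.7 and 35.9 without (1.77 ± 0.46, 95% interval 0.78 to 2.75, adjusted p = 0.445). DLX2 read 150, 143 and 105 against 2.09, 84.9 and 49.6 (1.58 ± 0.50, interval 0.53 to 2.63, adjusted p = 0.906). The second probe sets of both went the other way by little, at -0.10 for DLX1 and -0.18 for DLX2. DLX5 read 159, 59.5 and 146 (0.92 ± 0.44, adjusted p = 1.0), DLX6 35.4, 29.6 and 63.3 (0.23 ± 0.28) and DLX6-AS1 25.5, 30.9 and 21.3 (0.32 ± 0.28). NKX2-1 remained dim, at 1.28, 9.28 and 0.815 (0.07 ± 0.28). No gene of the ventral patterning, GABAergic, dorsal or hypothalamic lists was called.

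At day 17 bFGF lowered DLX6-AS1, and the other 5 genes did not pass the test. Over all genes 0.182% were called higher and 0.157% lower. DLX6-AS1 read 132, 219 and 165 with bFGF, under every untreated pool (478, 788 and 406), so that the mean was 172 ± 43.8 against 557 ± 203 (-1.58 ± 0.28, adjusted p = 0.0207). The call was lost, with the same direction, when untreated pool 1 (adjusted p = 0.059) or pool 2 (0.115), or bFGF pool 1 (0.144) or pool 3 (0.096), was left out. It was also lost at a pseudocount of 1 (0.456) and with the compared groups alone (0.359). Without the 4 arrays of raised low signals it held (-1.48, adjusted p = 0.031).

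NKX2-1 read 70.7, 51.2 and 74.5 with bFGF, which overlaps the untreated pools only through their pool 2 at 64.3. Its change was -0.75 ± 0.28 (95% interval -1.34 to -0.17, adjusted p = 0.674). DLX1 read 631, 285 and 189 (-1.04 ± 0.46, interval -2.02 to -0.06, adjusted p = 0.963), and DLX2 744, 204 and 322 (-1.04 ± 0.50, interval -2.09 to 0.01, adjusted p = 1.0). Between pools of the same number, NKX2-1 and DLX1 were lower with bFGF in all 3 and DLX2 in 2 of 3, and with pool number as a block none of them passed. The share of all genes lower in this way was not counted, and the labels do not give these pools as pairs. For DLX1 and DLX2, bFGF pool 1 stood within the untreated range and the other pools below it. DLX5 read 212, 165 and 449 (0.48 ± 0.44), and DLX6 64.3, 45.1 and 86.0 (0.24 ± 0.28), with pool 3 highest in both. The DLX6 probe set 242940_x_at read 123, 130 and 137 with bFGF and 67.2, 119 and 43.7 without. It did not pass either (0.74 ± 0.25, adjusted p = 0.788 by limma over all probe sets). The change of 221289_at was 0.05 ± 0.28. SFTA3 read 43.5, 53.1 and 38.8 (-1.02 ± 0.32, adjusted p = 0.446).

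Among the gene lists, SST (-2.31 ± 0.46) and NR2E1 (147 ± 32.3 against 616 ± 44.8, -1.98 ± 0.30) were the members called lower with bFGF at day 17. None of 16 ventral patterning genes was called, with a median of -0.25 against -0.02 over all genes. GSX2 was at 16.8 ± 6.95 with bFGF and 59.7 ± 22.6 without, and LHX8 at 45.8 ± 18.2 and 83.5 ± 10.4. PRRX1, a mesenchymal homeobox gene on the neural crest list, rose to 326 ± 99.4 against 57.8 ± 11.3 (2.18 ± 0.36). The neural crest sum was 587.5 to 1464 with bFGF and 352.8 to 503.7 without. The higher sum came mainly from PRRX1 and TWIST1 (221 ± 169 against 56.0 ± 15.1). TFAP2B and HAND2 also had higher means with bFGF. SOX10 (30.0 ± 3.84 against 45.7 ± 38.9), TFAP2A (120 ± 92.5 against 130 ± 39.5), FOXD3 and BARX1 had lower means. The part of neural crest or mesenchymal cells in the DLX values was not tested.

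The bFGF effects at the 2 days were then compared directly. The difference (day 17 minus day 10) was called for 0 genes, so that 0% were higher and 0% lower, and limma gave 631 genes (3.19%) at an unadjusted p under 0.05. DLX1 (-2.81 ± 0.66, adjusted p = 0.666), DLX2 (-2.62 ± 0.70, adjusted p = 0.8) and DLX6-AS1 (-1.90 ± 0.40, adjusted p = 0.61) were among those 631. NKX2-1 was at -0.82 ± 0.39 (95% interval -1.65 to 0.00), DLX5 at -0.44 ± 0.62 and DLX6 at 0.01 ± 0.39. By their kept probe sets, DLX1 and DLX2 thus had positive estimates at day 10 and negative ones at day 17, without a difference that passed the adjusted test. Their second probe sets did not change sign, at -0.10 and -0.58 for DLX1 and -0.18 and -0.73 for DLX2 at days 10 and 17. The differences by these probe sets were -0.48 for DLX1 and -0.55 for DLX2. The label units of bFGF differ between the days.

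With bFGF at both days, DLX6-AS1 and NKX2-1 rose from day 10 to day 17 and the other 4 genes did not pass. Over all genes 0.662% were called higher and 0.389% lower. DLX6-AS1 went from 25.9 ± 4.80 to 172 ± 43.8 (2.14 ± 0.28, adjusted p = 0.00113) and NKX2-1 from 3.79 ± 4.76 to 65.4 ± 12.5 (2.05 ± 0.28, adjusted p = 0.00117), with no overlap of pools. Both missed the threshold with the compared groups alone (0.0566 and 0.0642). For NKX2-1 the other probe set gave 0.20. DLX2 (133 ± 24.2 to 423 ± 284, 1.38 ± 0.50, adjusted p = 0.362) and DLX5 (121 ± 54.0 to 275 ± 152, 1.05 ± 0.44, adjusted p = 0.532) had no overlap of pools either. The share of all genes without overlap was not counted, so that this describes these pools only. By its second probe set DLX2 changed by -0.02. The values of DLX1 were 1.30 ± 0.46 and of DLX6 0.48 ± 0.28. SFTA3, chosen for its likeness to NKX2-1 on these same arrays, also rose (1.56 ± 0.32, adjusted p = 0.0211), which is no separate result. This comparison shares its day 17 and day 10 bFGF arrays with the preceding ones.

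**Figure D4:**
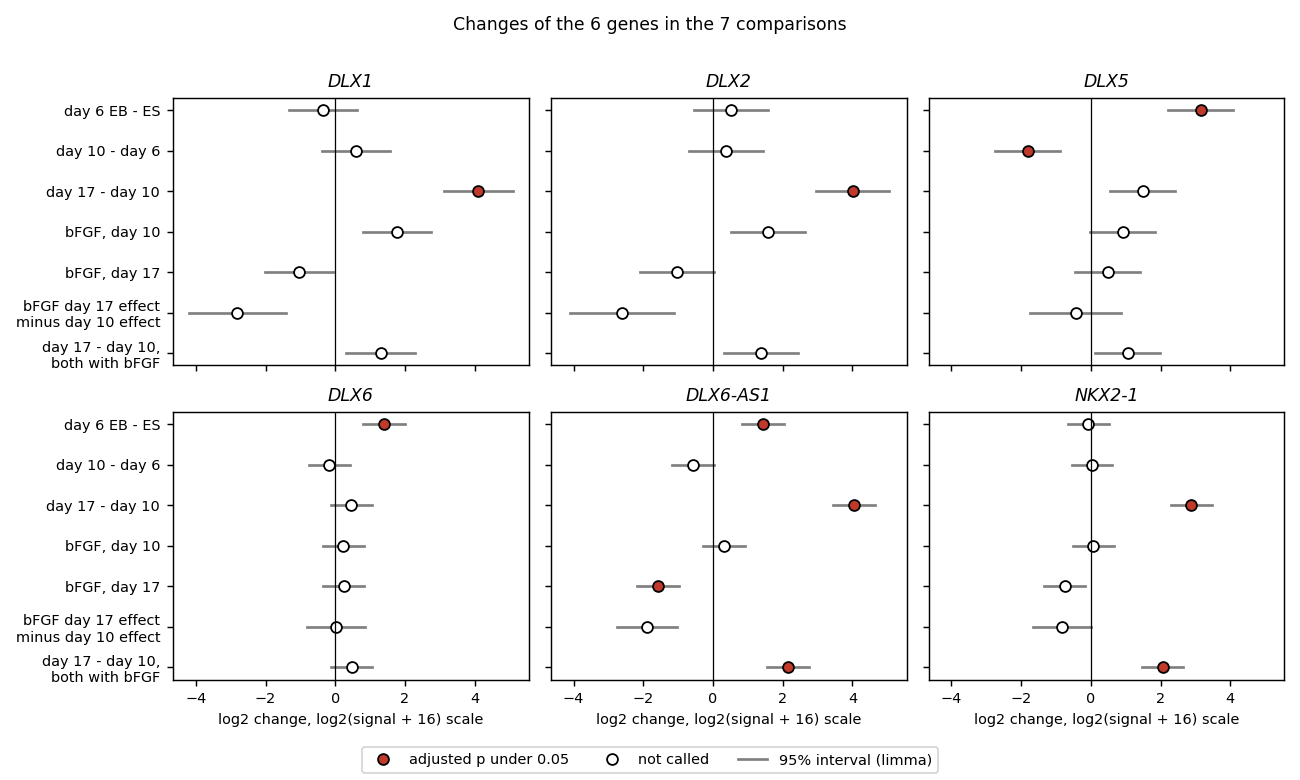
Each panel gives the log2 change of 1 gene, on the log2(signal + 16) scale, in the 7 comparisons with its 95% interval from limma, filled red where the adjusted p was under 0.05. DLX5, DLX6 and DLX6-AS1 are red at day 6, and DLX1, DLX2, DLX6-AS1 and NKX2-1 from day 10 to day 17.

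By mean signal, untreated day 17 stood first for DLX1, DLX2, DLX6-AS1 and NKX2-1, and bFGF day 17 stood first for DLX5 and DLX6. For DLX6-AS1 the order was untreated day 17, bFGF day 17, then day 6, bFGF day 10, untreated day 10 and ES, in which the pools of the 3 middle groups overlapped from one to the next. For NKX2-1 the 2 day 17 groups overlapped each other and lay apart from the other 4, which overlapped among neighbours. For DLX1 both day 17 groups and bFGF day 10 formed an overlapping series apart from the remaining 3 groups. For DLX2 the 2 day 17 groups overlapped and were followed, each apart from the next, by bFGF day 10 and untreated day 10; untreated day 10 overlapped day 6. For DLX5 the order was bFGF day 17 and day 6, which overlapped, then untreated day 17, bFGF day 10, untreated day 10 and ES, the last 3 overlapping from one to the next. For DLX6 the groups other than ES overlapped from one to the next, and each lay apart from the ES pools.

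Across the 18 arrays the genes of a pair resembled each other. Pearson r of log2(signal + 16) was 0.939 for DLX1 with DLX2 and 0.852 for DLX5 with DLX6. NKX2-1, on another chromosome, was at 0.86 with DLX2 and 0.848 with DLX1. A value like that of DLX5 with DLX6 was thus not particular to pairs. DLX6-AS1 was at 0.899 with NKX2-1, 0.862 with DLX1 and 0.847 with DLX2, and at 0.655 and 0.649 with DLX5 and DLX6 of its own locus. DLX1 and DLX5 were at 0.463. The points share the 6 groups, so that these values describe the time course and carry no test.

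Among 9917 other genes with a group mean of at least 100, the 5 most like DLX1 were DCC, a netrin receptor (r = 0.948), VCAM1, a cell adhesion molecule (0.940), LINGO2, POU3F3 and MIR100HG. DLX2 was most like RHOBTB3 (0.928), DCC (0.923), NPAS3, INA and APOA2. For DLX6-AS1 they were EPHA3, an ephrin receptor (0.948), PAM, PANTR1, NR2E1 and RFX4, and for NKX2-1, after SFTA3, PANTR1, a noncoding RNA gene next to POU3F3 (0.950), ELAVL3, a neuronal RNA-binding protein (0.937), NR2E1 and TERF2IP. DCC went from 42.9 at untreated day 10 to 640 at day 17 and was at 380 with bFGF. DLX5 was most like SVBP (0.906), GNG2 (0.890), PRUNE2, SOAT1 and RHOU, and DLX6 like GNG2 (0.918), MVB12B, TSPAN11, DPYSL5 and CRTC3. GNG2, a G protein subunit, was at 162 in ES cells, 645 at day 6 and 819 at untreated day 17. These genes were chosen for their likeness, so that their sharing the pattern of a member is no result.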

How the data were processed

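Total RNA pools of H9 cells were measured on 1-colour Affymetrix arrays (54675 probe sets, 18 arrays). As deposited, the values are linear signal intensities, 1 for each probe set on each array. Its 2% trimmed mean was 150.016 to 150.026 on all arrays, and so no further normalization was applied; for software, genome build and detection calls the entry is: not given in the sources used here. Without detection calls no limit of detection was set for low signals. Precision is limited by the number of arrays, and low signals were raised on 4 of them. Genes were named from the platform annotation (41097 probe sets with 1 gene, 1801 with several, 11777 unnamed here).

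All 6 members, the lists and the comparisons were chosen with earlier results of these data known. The text names every member in each comparison, up to 4 genes of each list by size of change or with a call, marker genes, and the 5 genes most like each member; GAD1, GAD2, SHH, OLIG2, GSX2 and the values given beside list counts were picked after their values were seen. No member was left out by a filter. Tests used limma 3.58.1 in R 4.3.3 (1 mean per group, 12 residual degrees of freedom, eBayes, two-sided, Benjamini-Hochberg over 19775 genes, threshold 0.05) and were tested on simulated data. Titles number pools 1 to 3, except that ES pool 1 follows accession order; 1 bFGF day 10 pool is 2 in its title, used here, and 1 in its description. Deviations of same-numbered arrays correlated at 0.209 to 0.668 in 5 pairs of groups, and in untreated day 10 against day 6 at 0.0749, 0.337 and 0.187. Arrays of different numbers were not correlated, and in each pair of groups pool 2 gave the highest value. In neuroepithelium the pool 2 arrays are those of raised low signals. The check thus cannot decide whether equal numbers pair cultures. Passages in the labels go against the number for 1 pair: day 6 pool 2 shares 27, 28 and 31 with ES pool 1 and day 6 pool 1, whereas ES pool 2 has 24, 25 and 26. Pool 3 has the same passages (26, 28, 29) in both groups; none are given for neuroepithelium. Alternatives were quantile scaling, pseudocounts of 1 and 64, a filter to the upper 60% of genes, another variance prior, a fit of only the compared groups, averaged or other probe sets, pool number as a block, the 4 arrays left out or as a term, and each array left out.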

Additional observations from a re-analysis of the deposited data

How the results depend on the processing

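Tests of called genes among the 6 kept direction and call in 171 alternative fits and lost the call in 20, with none reversed. For genes not called, 562 fits kept direction and side of the threshold, 2 passed it and 23 reversed in sign. With pool number as a fixed replicate block, no call of the 6 genes changed, while the counts over all genes rose from 762 to 1454 (day 6 against ES), 1259 to 2512 (day 10 against day 6), 393 to 754 (day 17 against day 10), 17 to 34 (bFGF at day 10), 67 to 120 (bFGF at day 17), 0 to 1 (their difference) and 208 to 446 (bFGF day 17 against bFGF day 10). As a random block the replicate number gave 1363, 2300, 754, 38, 122, 1 and 447 in that order, and DLX5 then passed from day 10 to day 17. With the set of the 4 arrays of raised low signals as a term, 1171 genes were called at day 6, 645 from day 10 to 17, 37 and 102 for bFGF at days 10 and 17, 1 for the difference and 362 from day 10 to 17 with bFGF. Without those arrays the counts were 229 from day 10 to 17, 4 for bFGF at day 10 and 106 from day 10 to 17 with bFGF. The compared groups alone gave 647 for day 10 against day 6, 34 for day 17 against day 10, 0 for bFGF at either day and 6 for day 17 against day 10 with bFGF, and 0 of the 6 genes at day 10 against day 6, for bFGF at day 17 and for day 17 against day 10 with bFGF. A pseudocount of 1 gave 226 from day 10 to 17, 2 and 20 for bFGF at days 10 and 17, 113 from day 10 to 17 with bFGF, and 0 of the 6 genes at day 10 against day 6 and for bFGF at day 17. A pseudocount of 64 gave 1 gene for the difference, and averaging each gene's probe sets gave 9 for bFGF at day 10. In the upper 60% of genes, which leave out NKX2-1, 1 of the genes was called from day 10 to 17 with bFGF.

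Leaving out 1 array at a time gave 462 to 615 genes at day 6, 206 to 311 from day 10 to 17, 3 to 13 and 22 to 45 for bFGF at days 10 and 17, 0 to 1 for the difference and 113 to 146 from day 10 to 17 with bFGF. It gave 0 to 1 of the 6 genes at day 10 against day 6 and for bFGF at day 17.

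Changes that reversed were all of genes not called, and the reversed values were small, though some of the main estimates were not. At day 10 against day 6 NKX2-1 was at -0.0549 after quantile scaling and -0.0089 to 0.0828 with 1 array left out, and DLX2 at -0.1429 without the 4 arrays and -0.1429 to 1.0968 with 1 left out. For bFGF at day 10, the fit without the 4 arrays gave -0.0509 for DLX6-AS1 and -0.0918 for NKX2-1; leaving out 1 array gave -0.1167 to 0.1773 for NKX2-1 and -0.0093 to 0.4171 for DLX6. The other probe sets gave -0.0048 for NKX2-1, -0.1021 for DLX1 and -0.1846 for DLX2, where the main estimates of DLX1 and DLX2 were 1.77 and 1.58. For the difference DLX6 was at -0.0178 (pseudocount 1), -0.0455 (averaged probe sets), -0.1026 (221289_at) and -0.1775 to 0.2488 (1 array left out), and DLX5 at 0.0706 without the 4 arrays and -0.8365 to 0.1382 with 1 left out. DLX2 was at -0.0189 by 215685_s_at for day 17 against day 10 with bFGF, where the main estimate was 1.38. The cause of these shifts was not tested.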
